A study of Mus musculus with 16 samples.

Results

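The genes described here encode neuropeptide precursors, the secreted proteins from which neurons cut peptide transmitters and hormones. They were chosen by name from a list of 38 genes, and every probe set was taken whose only gene symbol in the platform annotation is one of them. A probe set is a group of short probes that together read a transcript or several related ones. Of the 38 genes, 33 had a probe set, and together they had 36 of the 45101 probe sets on the array. Pomc, Tac1 and Adcyap1 each had a pair, and the other 30 genes had 1 each. Agrp, Nps, Rln3, Gnrh1 and Kiss1 had no probe set under that rule and are not analysed here.

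A neuropeptide is made as a longer precursor that enters the secretory pathway, is cut by prohormone convertases in dense-core granules, and is often amidated at its end before release. It then acts on receptors that nearly all belong to the G protein-coupled family. Many precursors are made by small, well separated groups of neurons, such as the vasopressin and oxytocin cells of the hypothalamus, while others, such as somatostatin, neuropeptide Y and cholecystokinin, are made by interneurons across the forebrain. Some neuropeptides reach the cerebellum in incoming mossy and climbing fibres, whose cell bodies lie outside it.

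Brains of WT and SINE KO littermates were cleaned of brain stem remnants by hand and divided into the cerebellum (cb) and everything else (Br, rest of brain), and total RNA was put on Affymetrix arrays. The SINE KO mice were homozygous for a 4 bp deletion in the SINE exon of Pgc1α, which belongs to a brain-expressed isoform of this transcriptional coactivator; the line was made in C57BL/6J embryos and bred to C57BL/6 mice, so the KO groups stand for 1 mutant line. The 8 groups were WT cb female, WT cb male, WT Br female, WT Br male, KO cb female, KO cb male, KO Br female and KO Br male, with 2 arrays each, 16 in all. The labels give no treatment, the littermates were age-matched, and neither an age nor the pairing of cb with Br arrays by animal is given in the labels.

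The deposited values are not intensities. They take 5 distinct values, which correspond to levels of 2, 1, 0, -1 and -2, and they were taken as detection calls: 2 for detected, 1 for marginal, and the rest for not detected. Neither the labels nor the study's methods give this meaning. It fits genes of known behaviour: all 5 Actb probe sets were detected on all 16 arrays, and Eif2s3y, a Y-linked gene, was detected on all 8 male and 0 female arrays. Of Xist, transcribed from the inactive X chromosome, 2 probe sets were detected on all 8 female and 0 male arrays, but the third was detected on all 16 and does not separate the sexes. A call tells whether a transcript was seen and not how much of it there was, so the level of a precursor called in both groups may differ all the same. The 5 probe sets of Pgc1α (Ppargc1a) were detected on all 16 arrays, which checks nothing about the genotype, since the deletion is small and the probes are not known to cover it. An array detected 25517 to 28155 probe sets (median 26892). WT cb female replicate 2 stood apart from the other 7 cb arrays in its cell type markers, with 12 of 17 granule cell probe sets against 15 to 17, 17 of 23 Purkinje cell probe sets against 21 to 22, and 9 of 12 forebrain neuron probe sets against 6 to 7. For the precursors, the main comparisons of brain parts are given with and without it. Those of the receptors and the other gene lists are given with it alone. Both KO cb female arrays stood apart in another list, with 8 to 10 of 13 hindbrain and brain stem probe sets against 0 to 3 on the other 6 cb arrays. They were not left out together.

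Upstream sequences are shown for the precursors on which the comparison of brain parts turned, Avp, Oxt, Tac2, Pdyn and Cartpt, and for Sst, which was detected on every array, as a contrast. Each is the stretch of 250 bases before the annotated transcription start, written 5′ to 3′ on the gene's own strand, from RefSeq with build GRCm38.p6. For Pdyn, which has more than 1 annotated start, the window of the most upstream one is shown. Capitals mark a match to TGACGTCA, the cAMP response element, or to CACGTG, an E-box.
Avp (chr2:130582589-130582838, minus strand): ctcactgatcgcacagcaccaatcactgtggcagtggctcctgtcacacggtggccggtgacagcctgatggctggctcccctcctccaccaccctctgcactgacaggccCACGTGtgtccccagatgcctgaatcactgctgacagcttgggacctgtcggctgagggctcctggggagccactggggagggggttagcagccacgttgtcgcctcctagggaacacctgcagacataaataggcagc
Oxt (chr2:130575919-130576168, plus strand): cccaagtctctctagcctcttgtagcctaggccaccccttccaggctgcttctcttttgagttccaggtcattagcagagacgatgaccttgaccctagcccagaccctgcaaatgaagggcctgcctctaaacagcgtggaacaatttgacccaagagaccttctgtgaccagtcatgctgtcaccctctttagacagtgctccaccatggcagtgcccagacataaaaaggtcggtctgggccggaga
Tac2 (chr10:127724228-127724477, plus strand): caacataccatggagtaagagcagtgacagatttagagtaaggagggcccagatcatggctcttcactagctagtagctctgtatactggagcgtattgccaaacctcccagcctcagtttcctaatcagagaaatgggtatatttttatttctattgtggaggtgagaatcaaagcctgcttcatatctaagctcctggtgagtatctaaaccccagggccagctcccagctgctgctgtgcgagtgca
Pdyn (chr2:129699939-129700188, minus strand): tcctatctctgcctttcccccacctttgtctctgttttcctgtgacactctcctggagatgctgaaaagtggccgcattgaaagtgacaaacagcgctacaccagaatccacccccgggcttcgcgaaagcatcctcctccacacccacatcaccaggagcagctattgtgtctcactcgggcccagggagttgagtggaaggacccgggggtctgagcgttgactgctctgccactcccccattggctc
Cartpt (chr13:99900684-99900933, minus strand): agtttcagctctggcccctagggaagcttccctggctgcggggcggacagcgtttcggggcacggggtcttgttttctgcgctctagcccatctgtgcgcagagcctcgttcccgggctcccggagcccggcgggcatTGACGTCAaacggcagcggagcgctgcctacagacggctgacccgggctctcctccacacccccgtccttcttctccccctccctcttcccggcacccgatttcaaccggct
Sst (chr16:23890845-23891094, minus strand): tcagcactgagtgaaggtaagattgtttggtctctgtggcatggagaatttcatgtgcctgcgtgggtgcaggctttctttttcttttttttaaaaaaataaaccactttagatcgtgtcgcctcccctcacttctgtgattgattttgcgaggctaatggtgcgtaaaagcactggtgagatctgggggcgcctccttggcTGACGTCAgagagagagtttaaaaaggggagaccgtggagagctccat
The Cartpt window held TGACGTCA from 112 to 105 bases before the start and the Sst window from 48 to 41 bases before it, so the same motif lay upstream of a precursor detected on every array and of one mostly missing from cb. The Avp window held CACGTG from 139 to 134 bases before the start, and the windows of Oxt, its neighbour on chromosome 2, of Tac2 and of Pdyn held neither motif.

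Of the 33 genes, 27 had a RefSeq window, in 30 windows. TGACGTCA was in 3 of the 30 (Cartpt, Sst and Ucn) and in 1.55% of all 32851 windows, and CACGTG was in 4 of the 30 (Avp, Cck, Nmu and Tac1) and in 6.02% of all. TATAAA, the TATA box, was in 9 of the 30 and in 12.4% of all. The palindromic oestrogen response element was in 0 of the 30 and in 0.0639% of all. Both strands were searched, no match in the 30 windows overlapped a match to another motif, and a match describes letters and not binding.

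The precursors were detected unevenly. Of the 36 probe sets, 8 (22.2%) were detected on all 16 arrays, 5 (13.9%) on none and 23 (63.9%) on some, whereas of all probe sets 48% were detected on all arrays, 27% on none and 25% on some. The 8 detected everywhere read Npy, Sst, Cck, Penk, Pnoc, Nts, 1 of the probe sets of Tac1 (1416783_at) and 1 of Adcyap1 (1441778_at). The 5 detected nowhere read Ghrh, the growth hormone-releasing hormone precursor, Nmu, Cort, Ucn and Ucn3. Marginal values made up 3.99% of the precursors' values and 1.51% of all values. Levels below 0 appeared in Ucn3 alone among the precursors, on 8 arrays, beside 0 on the other 8.

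**Figure D1:**
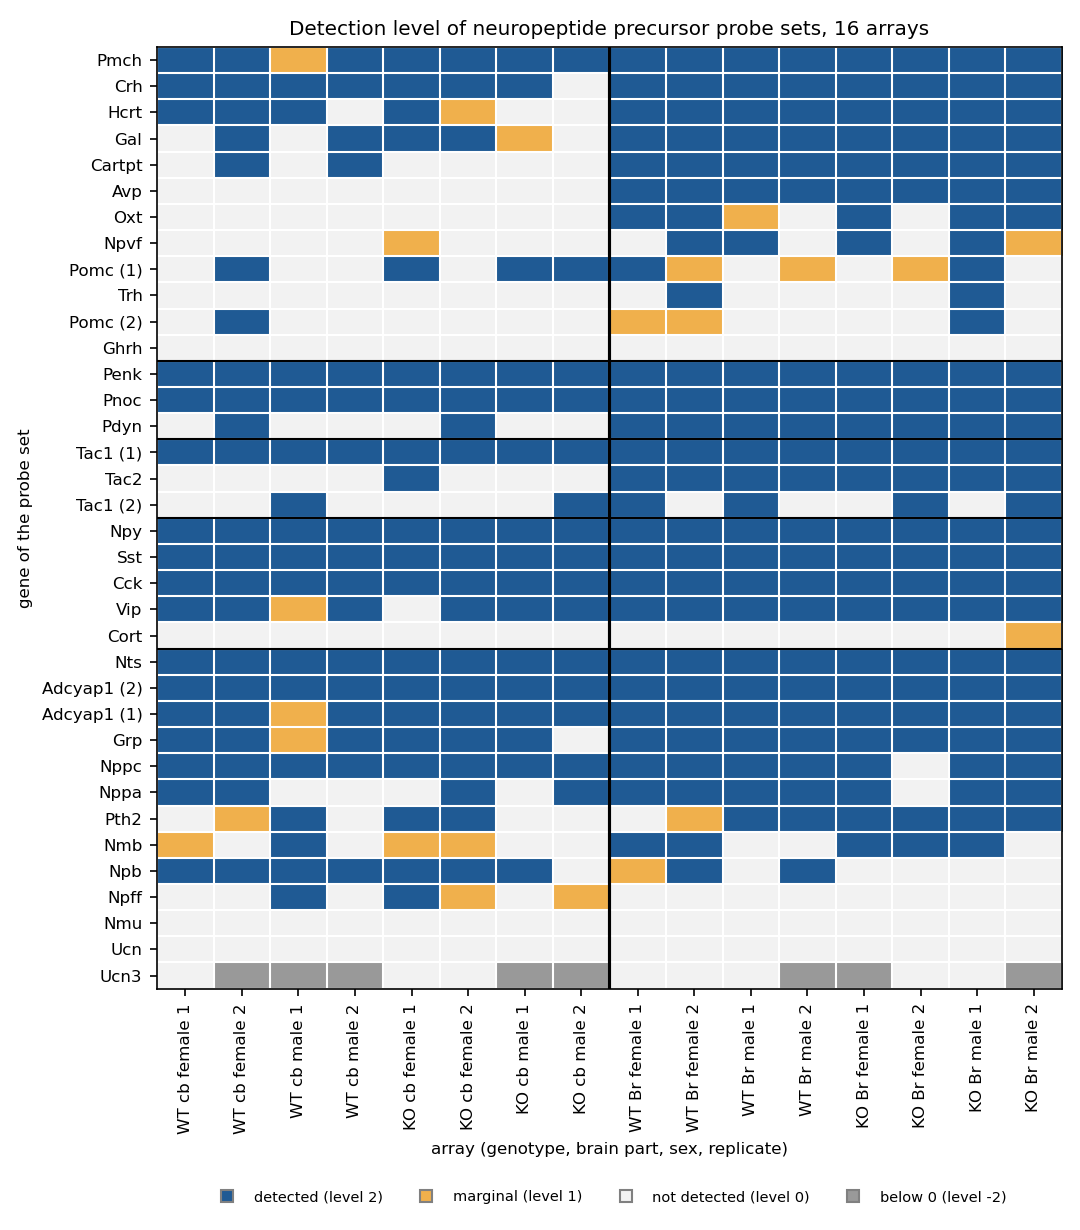
Detection level of each of the 36 precursor probe sets (rows, by gene; 1 and 2 in brackets tell apart probe sets of the same gene) on each of the 16 arrays (columns). Black lines separate the brain parts and, from top to bottom, hypothalamic and neuroendocrine, opioid, tachykinin, interneuron and other precursors; Avp is detected on all 8 Br arrays and 0 cb arrays.

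More precursors were detected in the rest of brain than in the cerebellum. In cb, 17, 22, 16 and 17 of the 36 probe sets were detected on the WT arrays (female replicates 1 and 2, then male 1 and 2) and 20, 19, 16 and 15 on the KO arrays. In Br, the numbers in the same order were 25, 26, 24 and 23 on the WT and 25, 22, 28 and 24 on the KO arrays. The lowest Br array equalled the highest cb array, WT cb female replicate 2, and without it the ranges of 15 to 20 and 22 to 28 did not overlap. Leaving out the highest cb array could only lower the top of the cb range, so this adds no support. The mean share was 68.4% ± 5.13 in Br and 49.3% ± 6.6 in cb (SD, n = 8 arrays each), and 47.6% in cb without WT cb female replicate 2. Over all probe sets the shares were 60.3% and 59.1%. Counted by gene, 23 ± 1.93 of 33 genes were detected in Br and 16.5 ± 2.33 in cb (SD, n = 8). In such bulk samples, fewer cells of a type and less RNA per cell cannot be told apart.

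**Figure D2:**
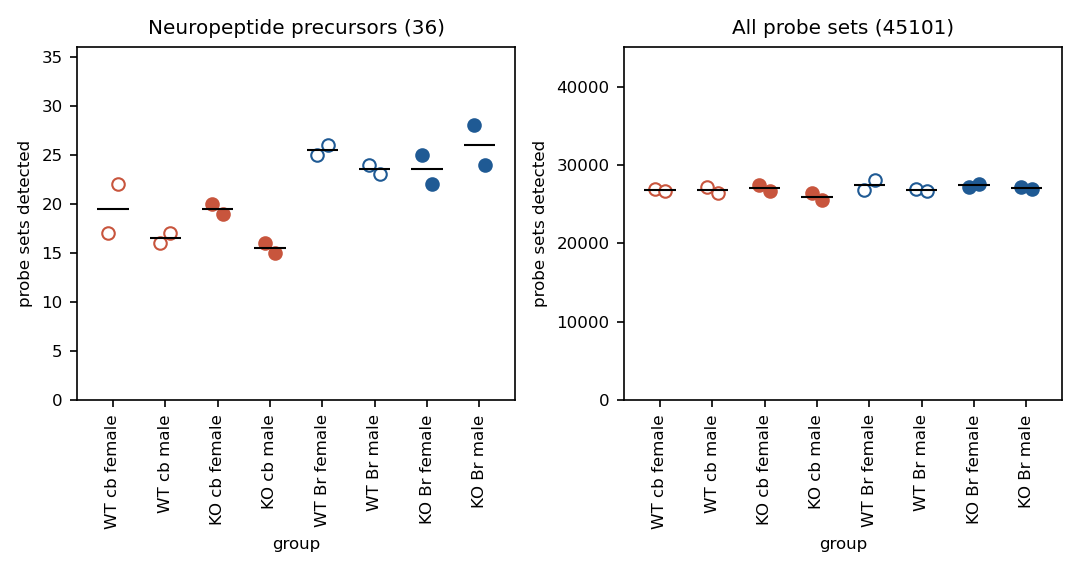
Number of precursor probe sets (left, of 36) and of all probe sets (right, of 45101) detected on each array, by group. Points are single arrays (open, WT; filled, KO; red, cb; blue, Br) and lines are means of 2 arrays; precursor counts are 15 to 22 in cb and 22 to 28 in Br, while the totals overlap.

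Each probe set was then compared between the 8 Br and the 8 cb arrays with Fisher's exact test, two-sided, adjusted by Benjamini-Hochberg over all 45101 probe sets. No precursor passed an adjusted p of 0.05 in either direction, and neither did any other probe set (background 0%). The smallest exact p that 8 against 8 arrays allow, 0.000155, adjusts to 0.0501. Avp had that value, and its adjusted p was 0.0273 to 0.0487 when any 1 of the 16 arrays was left out, lowest without WT cb female replicate 2. That fall was fixed by the counts of arrays and adds no support. The exact p of Avp stays at 0.000155 with an array fewer, while more probe sets can reach it. Without WT cb female replicate 2, 170 probe sets were on all Br and no cb arrays, against 115 with it. At an unadjusted p under 0.05, 5 of the 36 precursor probe sets (13.9%) were detected on more Br arrays, against 1.73% of all probe sets, and 1 (2.78%) on more cb arrays, against 1.04%. A second adjustment covered only the 3873 probe sets whose number of detecting arrays leaves an exact p under 0.05 within reach. It called 4 of the 11 precursors among them higher in Br (Avp, Tac2, Pdyn and Cartpt; background 11.5%) and 0 higher in cb (background 5.55%). Without WT cb female replicate 2, an unadjusted p under 0.05 was reached by 7 precursor probe sets higher in Br (background 2.2%), with Hcrt and Gal added, and by 1 higher in cb (background 1.35%). That array detected Pdyn, Cartpt, Hcrt and Gal, so leaving it out could only lower their p, and the fall adds no support. Counting any difference, 18 precursor probe sets (50%; background 12.7%) were detected on more Br arrays. There were 4 (11.1%; background 9.64%) on more cb arrays, a share near the background, and 14 on as many of each. The median difference was 6.25 percentage points of arrays over the precursors and 0 over all probe sets. The p-values measure only the spread between these arrays, since nothing in the labels says that each came from a separate mouse. The study divided each brain into both parts, so a cb and a Br array may share a mouse. The exact test treats all arrays as independent.

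Among the hypothalamic and neuroendocrine precursors, 9 of 12 probe sets were detected on more Br arrays (background 12.7%), 1 on more cb arrays (background 9.64%) and the other 2 on as many of each. Avp (1450794_at), which encodes vasopressin, the hormone of water balance, was at level 0 on all 8 cb arrays and at level 2 on all 8 Br arrays. It was the only precursor whose calls in the brain parts did not overlap (1 of 36, 2.78%; background 0.255%), and none was detected on all cb and no Br arrays (background 0.0554%). The exact p was 0.000155, the adjusted p 0.0501, and 0.0043 over the 3873 probe sets. Oxt (1420556_at), the oxytocin precursor made in neighbouring hypothalamic cells, was also at level 0 on all 8 cb arrays. In Br it was detected on WT female replicates 1 and 2, KO female replicate 1 and KO male replicates 1 and 2. It was marginal on WT male replicate 1 and not detected on WT male replicate 2 and KO female replicate 2. It was thus not detected in cb and irregular in Br, with 5 of 8 arrays, an exact p of 0.0256 and an adjusted p of 1.

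Cartpt (1422825_at) encodes a peptide known for its part in feeding and reward. It was detected on all 8 Br arrays and on 2 cb arrays, WT female replicate 2 and WT male replicate 2. The exact p was 0.00699 and the adjusted p over the 3873 probe sets 0.0409. Without WT cb female replicate 2, which detected Cartpt, the exact p could only fall, and it was 0.0014. Hcrt, the orexin precursor of wakefulness, and Gal, the galanin precursor, were each detected on 8 Br and 4 cb arrays (exact p = 0.0769 for both). Without WT cb female replicate 2, which detected both, the exact p could only fall, and it was 0.0256 for each. Npvf, which encodes RFamide-related peptides, was detected on 4 Br and 0 cb arrays (exact p = 0.0769), and Trh, the thyrotropin-releasing hormone precursor, on 2 Br and 0 cb arrays. Pmch, the melanin-concentrating hormone precursor, and Crh, the corticotropin-releasing hormone precursor, were seen on 8 Br and 7 cb arrays each, so these hypothalamic precursors were called in cb as well.

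Pomc, the precursor of melanocortins and beta-endorphin made in the pituitary and the arcuate nucleus, was called on more cb than Br arrays by 1 of its probe sets, a direction that turned with marginal calls. The probe set 1433800_a_at was detected on 4 cb arrays (WT female replicate 2, KO female replicate 1, KO male replicates 1 and 2) and 2 Br arrays (WT female replicate 1, KO male replicate 1), with an exact p of 0.608. It was marginal on 3 Br arrays (WT female replicate 2, WT male replicate 2, KO female replicate 2) and 0 cb arrays, so with marginal calls counted as detected it was on 4 cb and 5 Br arrays. Its probe set 1455858_x_at was detected on only 1 array of each part, WT cb female replicate 2 and KO Br male replicate 1, both of which the first probe set also detected. On the 6 arrays with a detected 1433800_a_at, 0 to 9 of 11 pituitary marker probe sets were detected (median 4.5), and on the other 10 arrays 0 to 6 (median 1). Several of the 11 read Gh and were mostly called together. Tshb was detected on 7 cb arrays and 1 Br array, and Lhb on no array. KO Br male replicate 1, on which both Pomc probe sets, Trh and the most precursors of any array were detected, had 9 of the 11. The part of pituitary RNA in the Pomc calls was not tested.

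Marker lists of the hypothalamus were sparse in both parts. Of 13 hypothalamic probe sets, 2 to 5 were detected on the Br arrays and 0 to 2 on the cb arrays. Those of Nkx2-1, Nr5a1 and Rax, transcription factors of hypothalamic development, were at 0 detections on all 16 arrays. Others were detected in both parts. A probe set each of Sim1 and Six3 was on 8 Br and 5 cb arrays, and 1 of Otp on 6 and 3. The other probe sets of Sim1 and Six3 were on 0 arrays, and that of Otp on 1 Br array. Fezf1 was detected on 2 Br arrays and Six6 on 1, and both on 0 cb arrays. Markers of the labelled tissues were detected in both parts, granule cell and forebrain markers more in their own: 12 to 17 of 17 granule cell probe sets were detected in cb and 8 to 13 in Br, and 10 to 11 of 12 forebrain neuron probe sets in Br against 6 to 9 in cb. Purkinje cell markers overlapped, with 17 to 22 of 23 probe sets in cb and 16 to 21 in Br. KO Br female replicate 1 had 21 of them, against 16 to 18 on the other 7 Br arrays, and 13 of the granule cell probe sets, the highest count in Br and reached by another Br array too.

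Of the opioid precursors, Penk, which encodes enkephalins, and Pnoc, which encodes nociceptin, were detected on all 16 arrays. Pdyn (1416266_at), the dynorphin precursor, was detected on all 8 Br arrays and on only 2 cb arrays, WT female replicate 2 and KO female replicate 2. The exact p was 0.00699 and the adjusted p over the 3873 probe sets 0.0409. Without WT cb female replicate 2, which detected Pdyn, the exact p could only fall, and it was 0.0014. In males, where 0 of 4 cb and 4 of 4 Br arrays detected it, the calls did not overlap. KO cb female replicate 2 had 8 of 13 hindbrain and brain stem marker probe sets, and the part of brain stem tissue in its Pdyn call was not tested.

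Of the tachykinin precursors, Tac2 (1419411_at), which encodes neurokinin B, was detected on all 8 Br arrays and on 1 cb array, KO female replicate 1. The other 7 cb arrays were at level 0. KO cb female replicate 1 had 10 of 13 hindbrain and brain stem marker probe sets, and the part of brain stem tissue in its Tac2 call was not tested. The exact p was 0.0014, the adjusted p over all probe sets 0.161 and over the 3873 probe sets 0.0138. Tac1, the substance P precursor, depended on the probe set: 1416783_at was detected on all 16 arrays, and 1431883_at on 4 Br and 2 cb arrays.

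The interneuron precursors hardly differed in detection. Npy, Sst and Cck were detected on all 16 arrays, Vip, which encodes vasoactive intestinal peptide, on 8 Br and 6 cb arrays, and Cort, the cortistatin precursor, on none. Since detection was complete in both parts for Npy, Sst and Cck, the calls hold nothing on whether their levels differ.

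The remaining precursors included the only one detected more often in cb at an unadjusted p under 0.05. Npb (1440240_at), which encodes neuropeptide B, was detected on 7 cb arrays, all but KO male replicate 2, and on 2 Br arrays, WT female replicate 2 and WT male replicate 2, and it was marginal on WT Br female replicate 1. The exact p was 0.0406, the adjusted p 1 and over the 3873 probe sets 0.126, and with marginal calls counted as detected the exact p was 0.119. Nmb, the neuromedin B precursor, was detected on 5 Br arrays and 1 cb array (exact p = 0.119), Pth2, which encodes the tuberoinfundibular peptide, on 6 and 3, and Nppa, the atrial natriuretic peptide precursor, on 7 and 4. Grp, the gastrin-releasing peptide precursor, was detected on 8 Br and 6 cb arrays, the other probe set of Adcyap1, the PACAP precursor, on 8 and 7, and Nppc, the C-type natriuretic peptide precursor, on 7 Br and 8 cb arrays. Npff was detected on 2 cb arrays and 0 Br arrays. Nts, the neurotensin precursor, was detected on all 16.

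**Figure D3:**
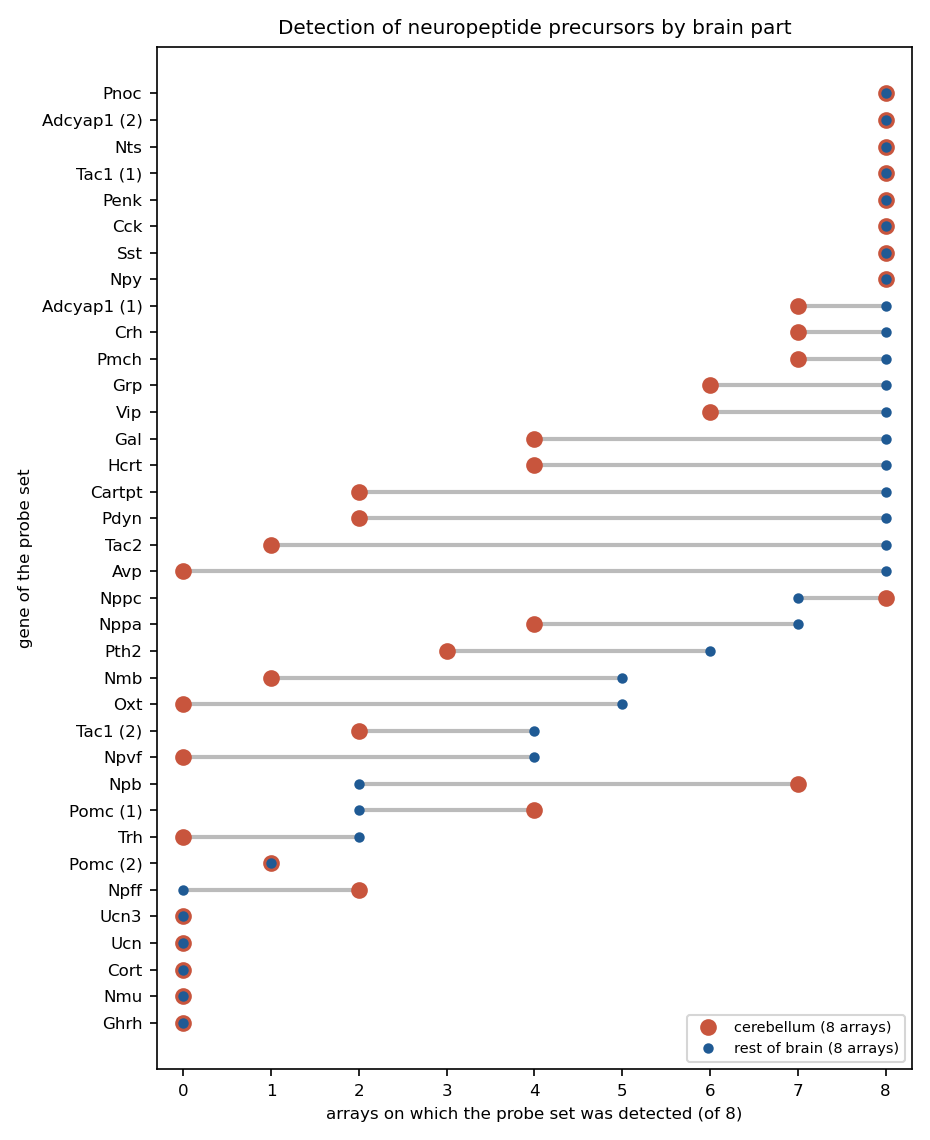
Number of arrays (horizontal axis, of 8) on which each precursor probe set (rows) was detected in cb (large red points) and Br (small blue points), joined by a grey line. Avp runs from 0 in cb to 8 in Br, Tac2 from 1 to 8, Pdyn and Cartpt from 2 to 8, while Npb runs the other way, from 7 in cb to 2 in Br.

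The order by brain part was looked at within each genotype and sex. Within WT, Avp and Tac2 were detected on all 4 Br and no cb arrays (2 of 36, 5.56%; background 0.435%), and within KO, Avp and Cartpt (5.56%; background 0.836%). Within females these were Avp and Nmb (5.56%; background 0.594%), Nmb with 3 marginal calls among the 4 cb arrays, so that its calls overlap when marginal counts as detected, and within males Avp, Tac2 and Pdyn (3 of 36; background 0.847%). None was detected on all 4 cb arrays and no Br array in any of these (background 0.151% in WT, 0.419% in KO, 0.197% in females and 0.596% in males). At 4 against 4 the smallest exact p is 0.0286, and 0 probe sets passed after adjustment in any of them. Among the 8 cb arrays, 17 to 22 precursor probe sets were detected on the female and 15 to 17 on the male arrays, with means of 19.5 ± 2.08 and 16 ± 0.816 (SD, n = 4). Without WT cb female replicate 2 the female mean was 18.7 ± 1.53 (SD, n = 3). Both KO arrays among these 3 had 10 and 8 of 13 hindbrain and brain stem marker probe sets, against 0 to 3 on the other 6 cb arrays, and the part of that in the difference was not tested. Over all probe sets these cb means were 26939 and 26368.

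Precursor detection differed between KO and WT by less than the spread of the arrays. The mean share of precursor probe sets detected was 59% ± 11.1 on the WT and 58.7% ± 12.5 on the KO arrays (SD, n = 8). Within cb it was 50% ± 7.52 in WT and 48.6% ± 6.61 in KO, and within Br 68.1% ± 3.59 and 68.8% ± 6.94 (SD, n = 4). Between 8 KO and 8 WT arrays, 0 of the 36 probe sets passed Fisher's exact test, either adjusted (background 0%) or at an unadjusted p under 0.05 (background 0.0244% higher in KO and 0.0599% higher in WT). An exact permutation of the genotype within brain part and sex, with 1296 arrangements, gave 0 adjusted calls over all probe sets and an unadjusted p under 0.05 for 31 of them (0.0687%), none a precursor. Of the 36, 6 (16.7%; background 9.11%) were detected on more KO arrays, 6 (16.7%; background 10.4%) on more WT arrays and 24 on as many of each. Within cb and within Br no precursor was detected on all 4 arrays of a genotype and none of the other (background for KO alone 0.00887% in cb and 0.0155% in Br, and for WT alone 0.0288% and 0.00443%).

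Pth2 and Npb had the widest differences between the genotypes over all 16 arrays. Pth2 was detected on 3 WT and 6 KO arrays (exact p = 0.315, and 0.278 permuted within brain part and sex). In Br, all 4 KO arrays and WT male replicates 1 and 2 detected it, WT female replicate 2 was marginal and WT female replicate 1 was not detected. In cb, KO female replicates 1 and 2 and WT male replicate 1 detected it, WT female replicate 2 was marginal and the other 4 were not detected. Npb was detected on 6 WT and 3 KO arrays (exact p = 0.315, and 0.25 permuted within brain part and sex). In Br this was 2 WT and 0 KO arrays, and in cb 4 WT and 3 KO arrays. Hcrt was detected on 3 WT and 1 KO arrays of cb, and Cartpt on 2 and 0, while both were detected on all Br arrays of either genotype.

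**Figure D4:**
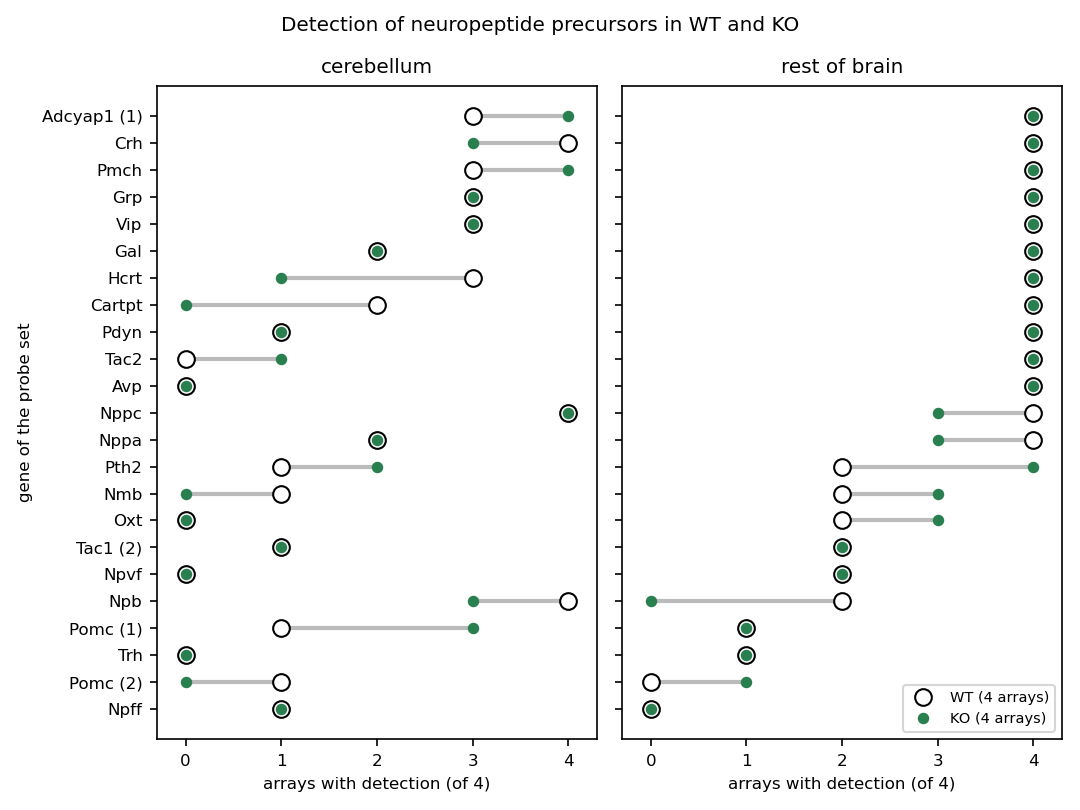
Number of arrays (horizontal axis, of 4) of WT (open black) and KO mice (green) on which each of the 23 varying precursor probe sets (rows) was detected, in cb (left) and Br (right), joined by grey lines. No row spans 0 to 4 in either panel; the widest gaps are of 2 arrays, as for Pth2 and Npb in Br.

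Within a sex and brain part, where 2 arrays face 2 and the smallest exact p is 0.333, probe sets detected on both arrays of a genotype and none of the other were counted without a test. In the female cb this was Pth2 in KO alone (1 of 36; background 0.743%), and in the female Br again Pth2 in KO alone (background 0.45%). In the male cb it was Pomc 1433800_a_at in KO alone (background 0.313%), and in the male Br Oxt in KO alone (background 0.576%). None was detected in WT alone (background 0.71%, 0.49%, 0.792% and 0.448% in the same order). For Pth2 in both female comparisons and Oxt in the male Br, 1 of the WT arrays was marginal, so none of these 3 holds when marginal calls count as detected. Under that setting the female cb had Npff in KO alone in place of Pth2, the female Br had Npb and Pomc 1455858_x_at in WT alone, and Pomc 1433800_a_at in the male cb held. The KO female cb arrays are those with the high hindbrain and brain stem marker counts given above, and the part of brain stem tissue in the Pth2 calls there was not tested.

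Replicate arrays of a group themselves differed in many precursor calls. On average 5.88 of the 36 calls (16.3%) differed between the 2 arrays of a group, from 3 in WT Br male to 11 in WT cb male, against 6.81% of all probe sets. KO and WT arrays of the same sex and part differed on average in 6 calls in the female cb, 8 in the male cb, 5 in the female Br and 4.5 in the male Br. These are 16.7%, 22.2%, 13.9% and 12.5% of the 36, against 7.6%, 7.19%, 6.2% and 5.99% of all probe sets. Arrays of cb and Br of the same genotype and sex differed on average in 10.4 calls (28.8%), for which the share over all probe sets was not taken. In all, 22 of the 36 probe sets differed between replicates in at least 1 group. Differences between genotypes were thus of the size of those between replicates, in the precursors and over all probe sets alike. Within the precursors, calls differed more between brain parts than between replicates. Whether the same holds over all probe sets, or by how much, was not examined.

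Other genes of the peptide system were followed in lists for receptors, for processing and granule proteins, and for degrading enzymes. Of 78 receptor probe sets, 37 to 44 were detected on the Br and 19 to 35 on the cb arrays, which do not overlap, with means of 52.1% ± 2.74 and 36.5% ± 6.39 (SD, n = 8). At an unadjusted p under 0.05, 9 receptor probe sets (11.5%; background 1.73%) were detected on more Br arrays and 1 (1.28%; background 1.04%), of the VIP and PACAP receptor Vipr2, on more cb arrays. The 9 read Cckbr, with 2 probe sets, Mchr1, Npr3, Npy2r, Ntsr1, Oprm1, Oxtr and Vipr1, and all but that of Npr3 passed the adjustment over the 3873 probe sets. Mchr1 (1428031_at), the receptor for melanin-concentrating hormone, and Oxtr (1440888_at), the oxytocin receptor, were detected on all 8 Br and 0 cb arrays, Oxtr with 1 marginal call on WT cb female replicate 2. Both had an adjusted p of 0.0501 over all probe sets. The other probe sets of these receptors read otherwise: for Mchr1 1 was detected on 7 and 1 on 6 cb arrays, with 8 Br arrays each, and for Oxtr the other was detected on none. The other probe sets of Oprm1 and Vipr1 were also detected on no array. Those of Npr3 were detected on 3 and 1 Br arrays and 0 cb arrays.

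**Figure D5:**
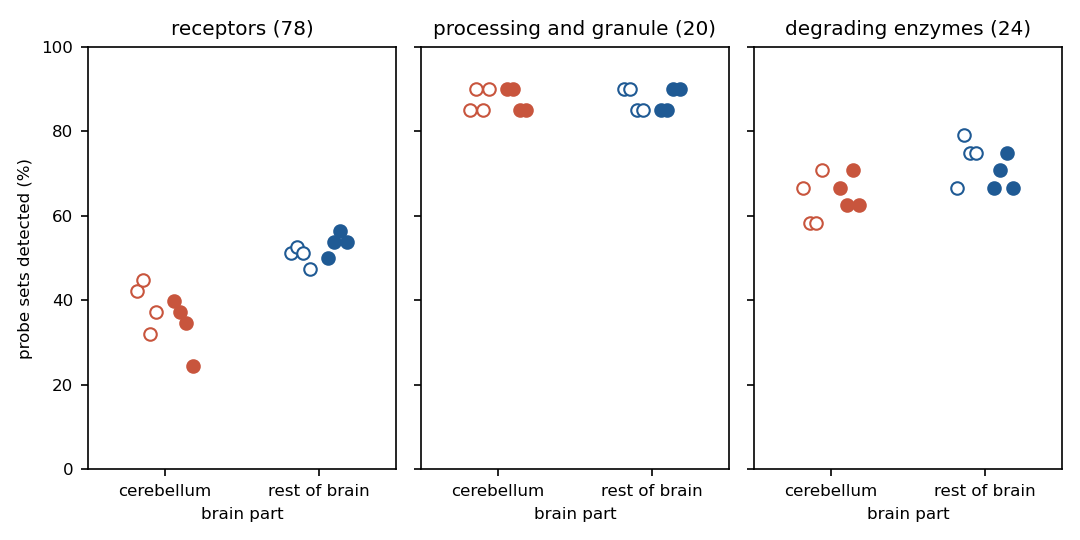
Share of probe sets detected (vertical axis, %) on each array for receptors (78 probe sets), processing and granule proteins (20) and degrading enzymes (24), in cb (red) and Br (blue; open, WT; filled, KO). Receptors lie lower on every cb array (24.4 to 44.9%) than on every Br array (47.4 to 56.4%), while processing and granule proteins lie at 85 to 90% on all.

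Genes for the processing and granule machinery, such as the convertase Pcsk1, the carboxypeptidase Cpe, the amidating enzyme Pam and the granins, were detected at 17 to 18 of 20 probe sets on every array, and 0 of them passed an unadjusted p under 0.05 between the brain parts (background 1.73% higher in Br and 1.04% higher in cb). Of 24 probe sets for peptide-degrading enzymes, 14 to 19 were detected per array, and 1, of the dipeptidyl peptidase Dpp4, was detected on more Br arrays at an unadjusted p under 0.05 (4.17%; background 1.73%). Between the genotypes, 0 probe sets of these lists passed an adjusted or an unadjusted p under 0.05. Of the receptors, 2 were detected on both WT and no KO arrays in the female cb and 3 in the male cb (background 0.71% and 0.792%), and 1 on both KO and no WT arrays in the male Br (background 0.576%). Both of those in the female cb, Npy1r and Sstr4, and Grpr of those in the male cb had a marginal KO call. Of the other lists, Pam in the male cb, also with a marginal KO call, Pcsk1 in the female Br (background 0.49%) and Dpp4 in the male Br (background 0.448%) were detected in WT alone.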

How the data were processed

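Total RNA of 16 samples was measured on Affymetrix arrays. The authors used the MAS5 algorithm per the methods and processing notes and RMA normalization with the LSTNR method per the results. A human array is named in the methods, but the probe set names belong to a mouse array. The deposited table holds 45101 probe sets and, in place of intensities, other numbers of 5 distinct values, read here as calls; a value above 5e-38 counted as detected. Genes were named by the platform annotation (34958 probe sets have 1 symbol, 932 several and 9211 none), and RefSeq keeps all 36 symbols.

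Groups came from the sample titles. Each probe set was tested with a two-sided Fisher's exact test, and p-values were adjusted by Benjamini-Hochberg over the whole table, at 0.05; limma could not be run on calls. Means, SDs and switches (all arrays of a group against none of the other) were counts of calls. The steps were tested on simulated data. Alternatives counted marginal calls as detected, counted by gene, adjusted over the 3873 probe sets able to pass, blocked by replicate number, split by genotype and sex, and left out each array. The genes described array by array were those with an unadjusted p under 0.05 between brain parts and those switched between genotypes within a sex and part; other precursors are given by their counts. Of the 3 other lists, genes switched between brain parts are described, and any further gene named was chosen after its values were seen. The precursors and the lists were chosen with earlier results of these data known. Depth is unknown beyond the number of probe sets detected, and precision is set by the number of arrays. Tests used scipy 1.17.1 with numpy 2.4.6 and pandas 2.3.3 under Python 3.11.15, and figures matplotlib 3.10.9.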

Additional observations from a re-analysis of the deposited data

How the results depend on the processing

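Avp, Tac2, Pdyn, Cartpt, Oxt and Npb kept their direction between brain parts under the alternatives run. With marginal calls as detected, 1 of the 36 probe sets turned, Pomc 1433800_a_at, from 4 cb and 2 Br arrays to 4 and 5, and within the female Br the switches changed from KO alone to WT alone under that setting. Over all probe sets, 0 precursor probe sets passed higher in Br; counted by gene 1 did (Avp), with adjustment over the 3873 probe sets 4, and with any 1 array left out 1 to 2, 2 only without KO cb female replicate 1, which is the array that detected Tac2 in cb. As given above, leaving out an array cannot raise the adjusted p of Avp, so its passing there is no sign of stability. At an unadjusted p, 5 passed higher in Br and 5 to 7 with 1 array left out; the count was 2 within WT, 2 within KO, 2 within females and 3 within males, where fewer arrays were tested. The 1 precursor higher in cb, Npb, was not called with marginal calls as detected (0), with the replicate block (0) or within either genotype or sex (0 each). Whether replicate numbers pair the arrays by animal is not settled by the calls. Correlations of deviations were -0.0217 to 0.047 between brain parts and -0.0031 to 0.0716 between genotypes. In each genotype and sex the same replicate had more of the 11 pituitary probe sets in cb and in Br, but these are not 11 separate readings. Several read Gh, most of them with the same calls on every array, and Tshb was detected on 7 cb arrays and 1 Br array. Replicates 1 and 2 of WT females had 2 and 5 in cb and 0 and 5 in Br. WT males had 1 and 6, then 0 and 3. KO females had 4 and 1, then 1 and 0, and KO males 5 and 1, then 9 and 0. The 1 of the KO females in Br was a Tbx19 call, while their 4 in cb were Gh and Tshb calls. A shared animal or batch was not tested. With the block, Oxt and Npb each had a p of 0.0625 by an exact sign test, and 4 probe sets in place of 5 were higher in Br at an unadjusted p. Detection on both arrays of 1 genotype and neither of the other rested on single arrays. For KO alone, counts of 1 became 1 to 3 in the female cb, 1 to 4 in the male cb, 1 in the female Br and 1 to 5 in the male Br with 1 array left out, and for WT alone counts of 0 became 0 to 2, 0 to 4, 0 to 3 and 0 to 1. The arrays whose removal raised the KO-alone counts were WT replicate 2 and KO replicate 2 of the female cb, WT replicate 2 and KO replicate 1 of the male cb, and KO replicate 2 of the male Br. Those that raised the WT-alone counts were WT replicate 1 and both KO replicates of the female cb, both WT replicates and KO replicate 1 of the male cb, both WT replicates and KO replicate 1 of the female Br, and WT replicate 1 of the male Br. With marginal calls as detected, KO alone was 0 and WT alone 2 in the female Br, and KO alone was 0 in the male Br. Mean shares of 49.3% in cb and 68.4% in Br were 47.6 to 50.4% and 67.1 to 69.4% with 1 array left out. The cause was not tested.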
